A study of Mus musculus with 3 samples.

Results

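Basal cells of the prostate rest on a basement membrane beneath the secretory luminal cells, and 9 genes that mark and anchor them were followed here among the 46095 genes of the count table. The members were taken by name: the lineage factor gene Trp63, the integrin genes Itga6 and Itgb4, the laminin genes Lama3 and Lamb3, the hemidesmosome genes Col17a1, Dst and Plec, and the water channel gene Aqp3. All 9 were found in the table and all 9 passed the filter on low counts, Aqp3 only through its level in 1 library. The samples are prostate tumors of TRAMP mice, which carry an SV40 oncoprotein transgene expressed in the prostatic epithelium, taken at 37 weeks of age. Phf8-KO mice carry this transgene and a knockout of Phf8, a histone demethylase gene on the X chromosome, and gave 2 libraries (Phf8-KO1 and Phf8-KO2). TRAMP mice, with the same transgene and wild-type Phf8, gave 1 library. Each library is RNA mixed from 3 mice, and which lesions those mice had is not given in the sources used here.

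As background, p63 is a transcription factor of the p53 family that keeps basal and other stratified epithelial cells in their lineage. It acts upstream of several adhesion genes in skin. The hemidesmosome is the junction by which such cells hold the basement membrane: integrin α6β4 spans the cell membrane and binds laminin-332 outside, while plectin and the epithelial product of Dst tie the integrin to keratin filaments inside, and collagen XVII bridges the 2 sides. In the normal prostate these genes are highest in basal cells, and adenocarcinomas characteristically lose that layer.

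The libraries held between 26747443 and 31876182 counts, and levels are given as CPM (counts per 1000000 counts, with TMM scaling). Phf8 itself was at 15.0 CPM in Phf8-KO1 and 15.9 in Phf8-KO2, against 19.4 CPM in TRAMP (log2 fold change -0.33 ± 0.25 SE, with an adjusted p of 0.44 in edgeR). Which exons the knockout removes is not given in the sources used here, so summed Phf8 reads leave the genotype unchecked. Several cell type lists set the libraries apart. The 9 skeletal muscle markers summed to 74.6 and 11.2 CPM in Phf8-KO against 1590 CPM in TRAMP, with all 9 lower in both pools. Of these, Ttn passed the filter through TRAMP alone and could only have been lower. The 6 smooth muscle markers summed to 4995 CPM in Phf8-KO1 and 363 in Phf8-KO2, against 674 CPM in TRAMP. The 5 adipocyte markers summed to 15.4 and 30.1 CPM in Phf8-KO and 360 CPM in TRAMP, and the 6 seminal vesicle markers to 1421 and 2051 CPM in Phf8-KO and 114 CPM in TRAMP. The 5 luminal markers summed to 2560 and 2522 CPM in Phf8-KO and 2646 CPM in TRAMP. The 5 neuroendocrine markers summed to 39.5 and 21.5 CPM in Phf8-KO and 79.6 CPM in TRAMP, with 4 lower in both pools. Of 6 fibroblast markers 3 lay above TRAMP in both pools and 1 below it, and endothelial and Schwann cell markers lay on either side. In tumor pools, fewer cells of a type and less RNA per cell cannot be told apart.

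The 9 genes did not differ from TRAMP as a block. Integrin β4, plectin and laminin β3 exceeded TRAMP by more than 2-fold in both Phf8-KO pools, whereas Trp63, which marks the basal cell itself, lay below TRAMP in one pool and above it in the other. Dst was at 0.874 and 1.10 times TRAMP. Aqp3 was nearly confined to TRAMP, with 444 counts there and a single count over Phf8-KO1 and Phf8-KO2 together. The quasi-likelihood test of edgeR, adjusted after Benjamini and Hochberg, passed 0 of the 9 genes (called at an adjusted p below 0.05 with more than a 2-fold difference). At p below 0.05 without adjustment, 4 were higher and 1 was lower. DESeq2 at the same thresholds called 3 higher, Itgb4, Plec and Lamb3, and 1 lower, Aqp3. Because Aqp3 passed the filter through TRAMP alone, it could only have been lower, and its call is a description.

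The background of these counts is wide. Of 18216 genes tested, the edgeR test called 0% higher and 0.0384% lower, while 14.9% were higher and 12.2% lower at a raw p below 0.05. With DESeq2 the shares were 8.42% higher and 4.10% lower. By value alone, with no minimum difference, both Phf8-KO pools lay above TRAMP in 6 of the 9 genes, against 41.0% of all genes, and in 1 both lay below it, against 42.8%. A difference of more than 2-fold in both pools was seen upward in 3 of the 9, against 11.4% of all genes, and downward in 1, against 12.1%. The 1 lower gene in each of these counts is Aqp3, which could only have been lower. The median log2 fold change of the 9 was 0.88, beside 0.01 over all genes. Residual spread could be estimated only between Phf8-KO1 and Phf8-KO2 (1 degree of freedom), so the fit takes TRAMP, a single pool, to be as variable as those. An exact permutation test of 2 libraries against 1 could not give a one-sided p below 0.333.

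**Figure D1:**
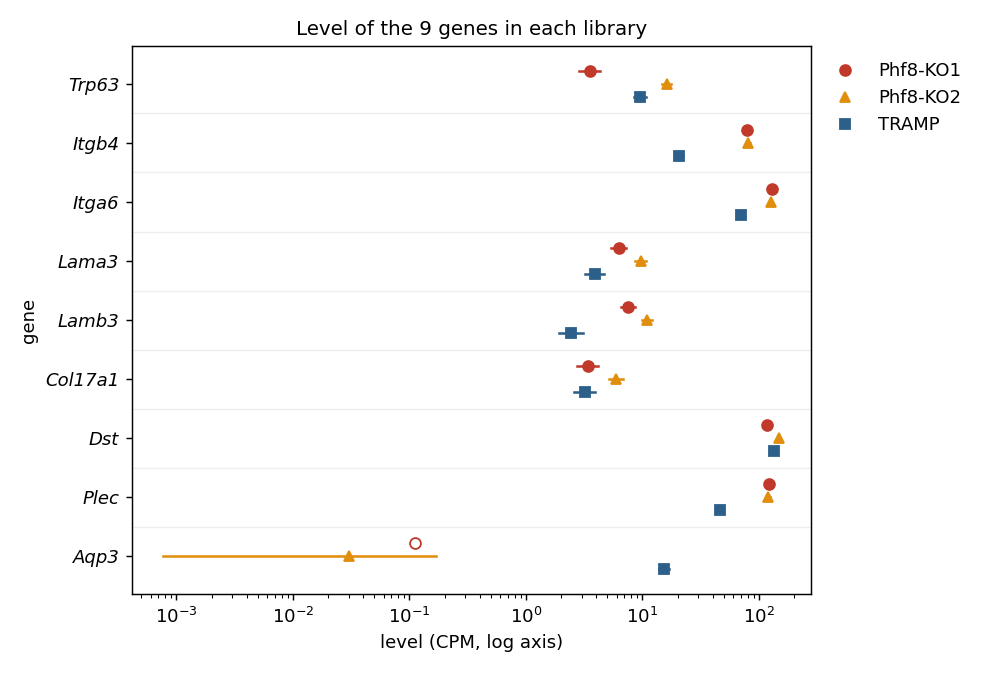
Level in CPM (log axis) of the 9 genes in each library, with circles for Phf8-KO1, triangles for Phf8-KO2 and squares for TRAMP, each a pool of 3 mice; horizontal bars are exact 95% counting intervals. The Phf8-KO points of Itgb4, Itga6 and Plec nearly coincide to the right of TRAMP, and the open circle is Aqp3 in Phf8-KO1, with 0 counts, drawn at the floor of 3 counts (0.113 CPM). Aqp3 in Phf8-KO2, with 1 count, is drawn at its own level of 0.0302 CPM, to the left of that circle though its count is higher.

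The integrin pair that gives the hemidesmosome its grip on laminin was higher in both Phf8-KO pools, and by unequal amounts. Itgb4, whose product is found almost only as the partner of α6, lies on GRCm38 chromosome 11 from 115974725 to 116008412. The gene was at 78.2 CPM in Phf8-KO1 and 80.0 in Phf8-KO2, against 20.6 CPM in TRAMP. The pools agree within counting error, with a ratio of Phf8-KO2 to Phf8-KO1 of 1.02 (95% counting interval 0.965 to 1.08), and both lie far from TRAMP. The log2 fold change was 1.94 ± 0.20 (SE), with an adjusted p of 0.10 in edgeR and 4.1e-08 in DESeq2, higher than that of 93.9% of the genes tested.
Itga6, the α chain, lies on chromosome 2 from 71786886 to 71858427 and can also pair with integrin β1. It was at 131 CPM in Phf8-KO1 and 126 in Phf8-KO2, against 69.7 CPM in TRAMP. The difference is under 2-fold, at a log2 fold change of 0.88 ± 0.19 (SE), with an adjusted p of 0.11 in edgeR and 0.016 in DESeq2, so no tool called it at the fold threshold. Per kilobase of exon, the level of Itga6 was 1.3 and 1.23 times that of Itgb4 in the Phf8-KO pools and 2.63 times in TRAMP. Gene models overlap at Itgb4 (Galk1 and a noncoding RNA), Dst (Bend6 and others), Plec (Parp10) and the longer GENCODE model of Lamb3 (Hsd11b1 and G0s2), and the strand setting of the counting is not given in the sources used here, so shared reads cannot be told apart.

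Lama3 and Lamb3 code for the α3 and β3 chains of laminin-332, the ligand of α6β4. Lamb3, on chromosome 1 from 193294353 to 193343878, was at 7.50 CPM in Phf8-KO1 and 10.9 in Phf8-KO2, against 2.46 CPM in TRAMP. The ratio to TRAMP was 3.06 in Phf8-KO1 (95% counting interval 2.32 to 4.06) and 4.45 in Phf8-KO2 (3.44 to 5.82). The log2 fold change was 1.91 ± 0.51 (SE), with an adjusted p of 0.14 in edgeR and 0.023 in DESeq2.
Lama3, on chromosome 18 from 12333417 to 12583013, was at 6.23 CPM in Phf8-KO1 and 9.62 in Phf8-KO2, against 3.87 CPM in TRAMP. Its log2 fold change was 1.03 ± 0.51 (SE), with an adjusted p of 0.28 in edgeR, and only Phf8-KO2 passed 2-fold, at a ratio of 2.48 against 1.61 in Phf8-KO1. Both pools lie above TRAMP for each of these chains, and Phf8-KO2 above Phf8-KO1 by 1.46-fold for Lamb3 (1.22 to 1.74) and 1.55-fold for Lama3 (1.28 to 1.88).
Per kilobase of exon, the level of Lamb3 was 1.96 and 1.84 times that of Lama3 in the Phf8-KO pools and 1.03 times in TRAMP. The lengths merge the exons of every isoform (10745 bases for Lama3), so the size of such ratios depends on which isoforms were made.

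Inside the cell, the plakins bind integrin β4 and collagen XVII to keratin, and here Plec and Dst differed. Plec, the plectin gene, lies on chromosome 15 from 76170974 to 76231378. It was at 123 CPM in Phf8-KO1 and 120 in Phf8-KO2, against 45.8 CPM in TRAMP, so that the pools lay within counting error of each other (ratio 0.981, 95% counting interval 0.936 to 1.03). The log2 fold change was 1.41 ± 0.19 (SE), with an adjusted p of 0.10 in edgeR and 3.4e-05 in DESeq2.
Dst, which codes for dystonin in neural, muscle and epithelial forms, lies on chromosome 1 from 33907888 to 34308662. Its level was 117 CPM in Phf8-KO1 and 148 in Phf8-KO2, against 134 CPM in TRAMP. TRAMP lies between the pools, and the log2 fold change was -0.02 ± 0.23 (SE), with an adjusted p of 0.97 in edgeR, with a sign that turns with library size scaling, without a filter and without Phf8-KO1. The counts pool every isoform of a gene, so the epithelial form of dystonin cannot be told apart from the others. Within a library, the level of Plec per kilobase was 2.38 and 1.85 times that of Dst in the Phf8-KO pools and 0.776 times in TRAMP.
Col17a1, the collagen XVII gene, lies on chromosome 19 from 47646341 to 47692042. It was at 3.38 CPM in Phf8-KO1 and 5.94 in Phf8-KO2, against 3.18 CPM in TRAMP. Phf8-KO1 and TRAMP agree within counting error (ratio 1.06, 95% counting interval 0.785 to 1.43), while Phf8-KO2 was 1.87 times TRAMP (1.45 to 2.42). The log2 fold change was 0.55 ± 0.61 (SE), with an adjusted p of 0.59 in edgeR.
Plectin and dystonin are also made in muscle. The skeletal muscle markers, all 9 lower in both Phf8-KO pools (Ttn could only have been lower), ran opposite to Plec. The smooth muscle markers, with 0 of 6 on one side of TRAMP in both pools, were high in Phf8-KO1, where Plec lay within counting error of Phf8-KO2. Their part in the values of Plec and Dst was not tested.

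Trp63 itself differed more between Phf8-KO1 and Phf8-KO2 than between either and TRAMP. The gene lies on chromosome 16 from 25683763 to 25892088, and its level was 3.53 CPM in Phf8-KO1 and 16.2 in Phf8-KO2, against 9.51 CPM in TRAMP. These are 94, 536 and 275 counts. Phf8-KO1 was at 0.371 times TRAMP (95% counting interval 0.290 to 0.470) and Phf8-KO2 at 1.70 times (1.47 to 1.97), so TRAMP fell between pools that differed 4.59-fold (3.68 to 5.77). The mean over the pools was 9.85 ± 8.94 CPM (SD, n = 2). The log2 fold change was 0.05 ± 0.99 (SE), with an adjusted p of 0.98 in edgeR, and its sign turns with upper quartile scaling, with limma-voom and without Phf8-KO2. Of the 9 genes, Trp63 was the only one whose Phf8-KO pools lay more than 2-fold apart, measured on log2 CPM after adding 1 prior count, as did 18.3% of all genes. Counts over the whole gene do not separate the TA and ΔN forms of p63.
Of the 5 basal markers, Krt5 followed the same order. Krt5, the keratin that pairs with Krt14 in basal cells, was at 9.79 CPM in Phf8-KO1 and 30.6 in Phf8-KO2, against 16.8 CPM in TRAMP. Krt14 did not follow it, at 11.8 CPM in Phf8-KO1 and 8.90 in Phf8-KO2, against 2.77 CPM in TRAMP. It was higher in both pools, with a log2 fold change of 1.90 ± 0.46 (SE), with an adjusted p of 0.12 in edgeR and 0.012 in DESeq2. Per kilobase, the level of Krt5 was 0.663 times that of Krt14 in Phf8-KO1 and 2.75 times in Phf8-KO2, against 4.87 times in TRAMP, so the keratin pair was not at a fixed ratio. Krt15 ran the other way, at 16.2 CPM in Phf8-KO1 and 47.1 in Phf8-KO2, against 148 CPM in TRAMP. Krt17 was at 6.38 and 2.26 CPM in Phf8-KO against 0.934 CPM in TRAMP, and Cdh3, the P-cadherin gene, at 1.95 and 1.99 CPM in Phf8-KO against 0.484 CPM in TRAMP. Of the 5 markers 3 lay above and 1 below TRAMP in both pools. None passed the edgeR test, while 1 higher and 1 lower had a raw p below 0.05 and DESeq2 called 1 higher and 1 lower. The shares of all genes were 14.9% and 12.2% at a raw p below 0.05, and 8.42% and 4.10% in DESeq2. Smooth muscle markers, summed, were highest in Phf8-KO1, the pool with the lowest Trp63, and their part in its level was not tested.

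**Figure D2:**
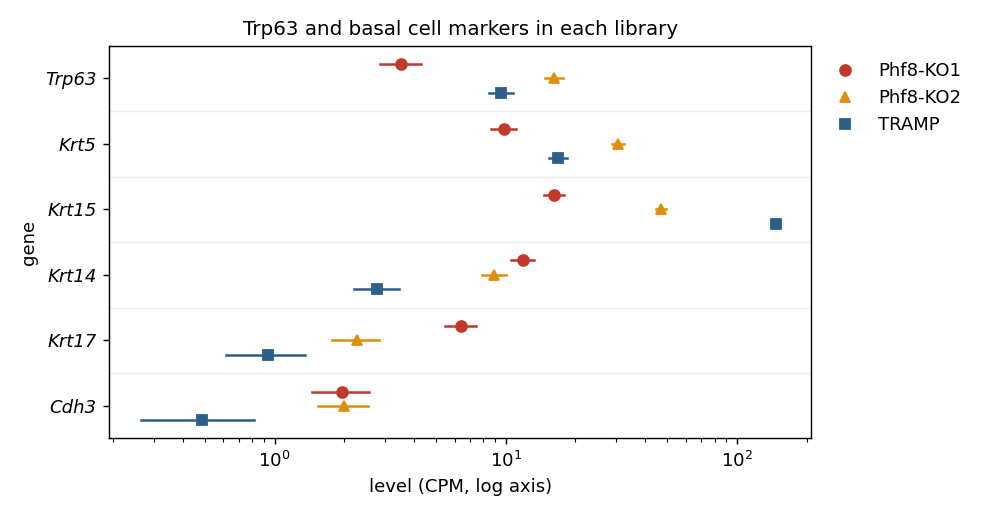
Level in CPM (log axis) of Trp63 and 5 basal cell markers in each library, with circles for Phf8-KO1, triangles for Phf8-KO2 and squares for TRAMP, each a pool of 3 mice; bars are exact 95% counting intervals. Trp63 and Krt5 share the order Phf8-KO2, TRAMP, Phf8-KO1, Krt15 is highest in TRAMP at 148 CPM, and Krt14, Krt17 and Cdh3 are lowest in TRAMP.

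Likeness to Trp63 was measured as the distance between log2 ratios to TRAMP over the Phf8-KO pools, among 13378 genes with a mean of at least 1 CPM. Predicted genes with names such as Gm or Rik were left out of that number. The nearest were Pdzk1, a scaffold gene of membrane transporters, at a distance of 0.251, followed by Arg1, the arginase gene, at 0.298, Lipg, a lipase gene, at 0.311 and the homeobox gene Hoxb9 at 0.333. Pdzk1, for example, was at 76.7 CPM in Phf8-KO1 and 274 in Phf8-KO2, against 186 CPM in TRAMP. In all 21 genes lay within 0.5. Krt5 was at a distance of 0.649, while the other 8 genes were at 1.38 (Dst), 1.51 (Col17a1) and farther, up to 11.4 for Aqp3. With only 3 libraries such a distance rests on 2 ratios that share the TRAMP library, and it is a description.

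**Figure D3:**
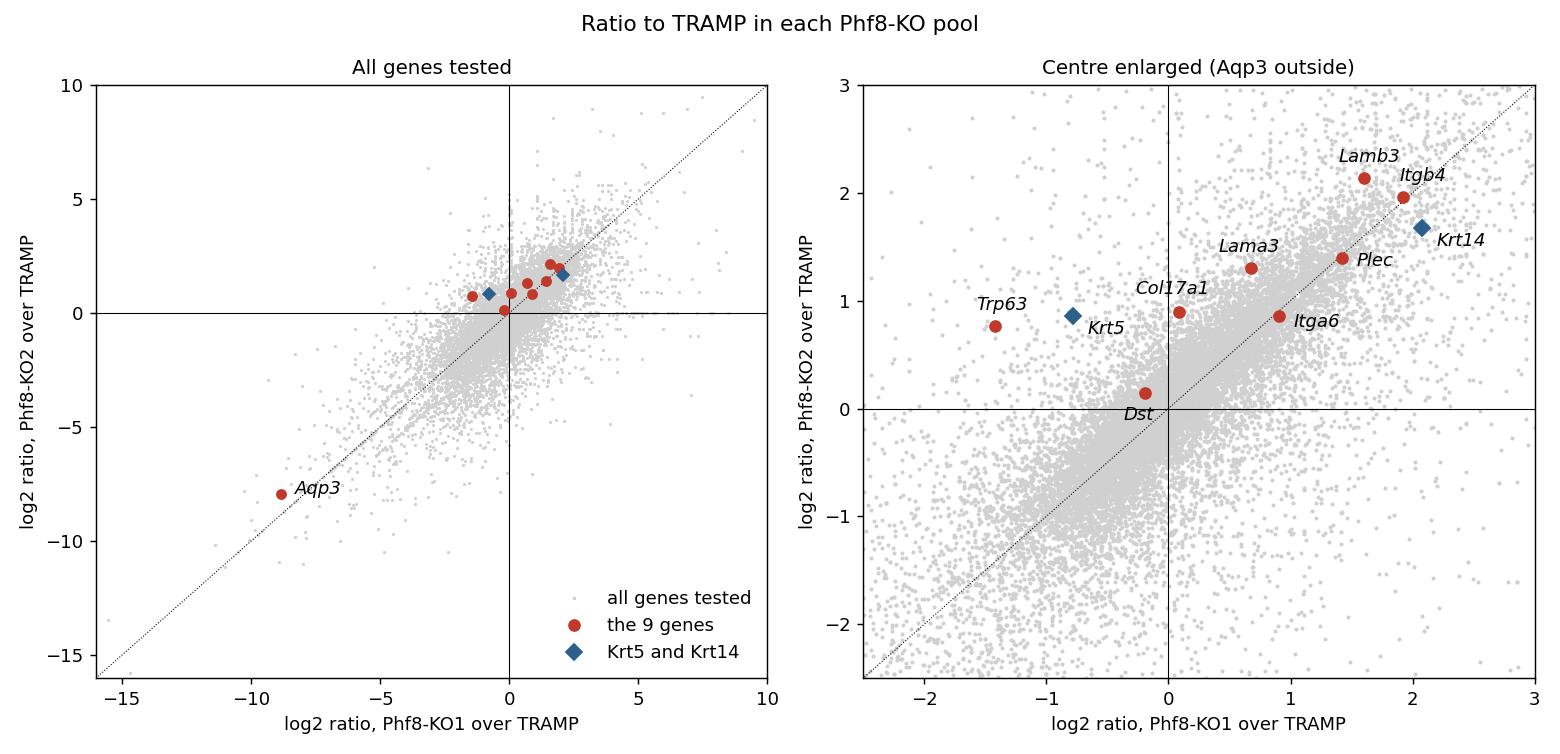
Log2 ratio to TRAMP in Phf8-KO1 (horizontal axis) and in Phf8-KO2 (vertical axis), on log2 CPM to which a prior count of 1 was added, for all genes tested (grey), the 9 genes (red circles) and Krt5 and Krt14 (blue diamonds), with the centre enlarged on the right. Itgb4, Itga6 and Plec lie on the dotted line of equal ratios, Trp63 lies at -1.42 and 0.76 beside Krt5, and Aqp3 stands at -8.83 and -7.91.

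Aqp3, a channel for water and glycerol in the basal membrane of epithelial cells, lies on chromosome 4 from 41092724 to 41098183. It had 0 counts in Phf8-KO1 and 1 count in Phf8-KO2, against 444 counts or 15.4 CPM in TRAMP. Relative to library size, TRAMP had 918 times the Aqp3 counts of the summed Phf8-KO pools, with a 95% counting interval of 164 to 36359. The fitted log2 fold change of -9.53 (standard error 0.89) had an adjusted p of 0.10 by the edgeR test, and adjusted p = 6.6e-08 by DESeq2. Without Phf8-KO1 the log2 ratio of the remaining libraries, not a fitted value, was -8.78, and without Phf8-KO2 it was -11.74. On so few counts such ratios depend on the prior count added. With a prior count of 1 they were -7.91 and -8.83. No other annotated gene overlaps Aqp3. It passed the filter through TRAMP alone, so a gene at this level could only have been lower in Phf8-KO.
Of the other 11 aquaporin genes 6 were tested. In both Phf8-KO pools 1 was higher and 4 were lower, against 41.0% and 42.8% of all genes. Aqp4, a water channel, had 0 counts in each of the Phf8-KO pools, with 49 counts in TRAMP, at least 33.8-fold higher in TRAMP (against a floor of 3 counts over both pools). Aqp7, a glycerol channel of fat cells, had 1 and 0 counts in the Phf8-KO pools and 20 counts in TRAMP. Aqp5 was at 6.12 and 3.32 CPM in Phf8-KO against 2.39 CPM in TRAMP, and Aqp11 at 4.01 and 4.53 CPM in Phf8-KO against 7.20 CPM in TRAMP. None passed the edgeR test, while 0 were higher and 2 lower (Aqp4 and Aqp7) at a raw p below 0.05, and DESeq2 called 0 higher and 1 lower (Aqp4). Like Aqp3, both passed the filter through TRAMP alone and could only have been lower, so these calls are a description.
Some markers of other tissues were lower in Phf8-KO alongside Aqp3. Aqp3 is also a gene of the urothelium, whose markers were mixed. Krt20 was at 0.150 and 0.0302 CPM in Phf8-KO against 57.0 CPM in TRAMP, and Upk3a at 1.43 and 0.664 CPM in Phf8-KO against 17.0 CPM in TRAMP. Upk1b ran the other way, at 657 and 636 CPM in Phf8-KO against 362 CPM in TRAMP. The 5 urothelial markers as a whole summed to 879 and 904 CPM in Phf8-KO and 883 CPM in TRAMP, with 3 lower and 1 higher in both pools. Skeletal muscle and adipocyte markers were lower in both pools for 9 of 9 and 5 of 5 genes, while seminal vesicle markers were higher in both for 6 of 6. Among the lower genes, Ttn, Plin1, Lep and the urothelial marker Krt20 passed the filter through TRAMP alone, so they could only have been lower. The part of these tissues in the level of Aqp3 was not tested.

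To show the sequence at the starts of members that ran in opposite directions and of Col17a1, which lay close to TRAMP in Phf8-KO1, their promoters are printed from RefSeq (GRCm38.p6), 250 bases before to 50 after the start site, 5′ to 3′ on the strand of the gene. Sequences were taken for 4 of the 9 genes, and Lama3 was left out of the selection. Capitals mark matches on either strand to 4 motifs searched: the TATA box (TATAAA), the GC box (GGGCGG), the AP-1 site (TGANTCA) and the p53 family motif, one arm of the site to which p63 and its relatives bind. These motifs do not overlap in the promoters shown.
Aqp3, chr4:41098134-41098433, minus strand: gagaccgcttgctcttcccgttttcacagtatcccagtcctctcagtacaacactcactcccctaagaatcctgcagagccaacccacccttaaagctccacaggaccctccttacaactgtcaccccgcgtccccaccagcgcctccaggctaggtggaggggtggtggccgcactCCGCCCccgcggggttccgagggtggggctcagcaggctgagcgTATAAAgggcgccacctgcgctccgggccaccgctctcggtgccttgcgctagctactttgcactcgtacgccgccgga
Lamb3, chr1:193301744-193302043, plus strand, the first of 2 start sites in the table: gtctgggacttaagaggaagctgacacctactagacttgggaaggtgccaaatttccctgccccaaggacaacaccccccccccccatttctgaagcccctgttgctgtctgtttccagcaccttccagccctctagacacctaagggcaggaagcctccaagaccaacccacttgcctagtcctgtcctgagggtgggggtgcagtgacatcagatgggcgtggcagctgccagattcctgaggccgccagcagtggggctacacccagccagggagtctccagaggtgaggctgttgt
Col17a1, chr19:47691993-47692292, minus strand: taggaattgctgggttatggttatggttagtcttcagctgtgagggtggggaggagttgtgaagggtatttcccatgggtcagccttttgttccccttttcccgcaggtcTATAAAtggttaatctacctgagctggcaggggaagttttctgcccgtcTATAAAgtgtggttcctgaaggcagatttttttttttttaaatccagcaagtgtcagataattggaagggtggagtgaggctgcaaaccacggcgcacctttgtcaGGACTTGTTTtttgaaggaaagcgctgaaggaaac
The Aqp3 promoter held a TATA box that began at position -29 from the start site and a GC box on the opposite strand at -73. That of Lamb3 held none of the 4 motifs. That of Col17a1 held TATA boxes at -140 and -91 and a p53 family motif at 15. Among 32851 promoters of the same length, 13.6% held the TATA box, 35.7% the GC box, 7.81% the AP-1 site and 8.36% the p53 family motif. A match is a description of these letters and not a measured site.

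The partners of the 9 genes, 42 in all, of which 36 could be tested, were taken by role and described in the same way. The edgeR test called 0, with 10 higher and 3 lower at a raw p below 0.05, and DESeq2 called 9 higher and 2 lower. The lower genes include Aqp4 in both counts and Aqp7 at a raw p below 0.05. Both passed the filter through TRAMP alone and could only have been lower. Among the 36, 24 lay above and 7 below TRAMP in both pools, by value alone, and the median log2 fold change was 0.59. Of all genes tested, 14.9% were higher and 12.2% lower at a raw p below 0.05, and DESeq2 called 8.42% higher and 4.10% lower. By value alone 41.0% lay above and 42.8% below TRAMP in both pools. These shares are the background of each partner and marker list.
The other laminin chains were higher in Phf8-KO for 6 of 8 genes in both pools, with 0 lower in both and a median log2 fold change of 1.5. The edgeR test called 0 of them, 4 were higher at a raw p below 0.05, and DESeq2 called 4 higher. Lama5, the α chain of laminin-511 in most epithelial basement membranes, was at 281 and 282 CPM in Phf8-KO against 74.1 CPM in TRAMP. Lamb2 was at 324 and 264 CPM in Phf8-KO against 64.5 CPM in TRAMP. Lamc3 differed between the pools, at 5.10 CPM in Phf8-KO1 and 16.4 in Phf8-KO2, against 0.692 CPM in TRAMP. Lamc1, the γ1 chain of most laminins, was at 165 and 116 CPM in Phf8-KO against 66.5 CPM in TRAMP. Among the fibroblast markers, Col1a1 was at 163 and 97.1 CPM in Phf8-KO against 8.20 CPM in TRAMP. Col1a2 was at 314 and 181 CPM in Phf8-KO against 41.8 CPM in TRAMP. The list as a whole was mixed, with 3 of 6 genes higher and 1 lower in both pools. It summed to 1688.5 and 703 CPM in Phf8-KO and 1724 CPM in TRAMP. The part of fibroblasts in the laminin and integrin values was not tested.
Of 7 other epithelial integrin chains, 6 were higher in both Phf8-KO pools, with a median log2 fold change of 1.21. The edgeR test called 0, 4 were higher at a raw p below 0.05, and DESeq2 called 4 higher. Itga3, the α3 chain that with β1 also binds laminin-332, was at 259 CPM in Phf8-KO1 and 320 in Phf8-KO2, against 35.3 CPM in TRAMP (log2 fold change 3.04 ± 0.28 SE, with an adjusted p of 0.10 in edgeR). Itgb6, induced in epithelial repair, was at 51.3 and 35.7 CPM in Phf8-KO against 11.2 CPM in TRAMP. Itgb5 was at 130 and 113 CPM in Phf8-KO against 52.7 CPM in TRAMP, and Itgav, the αv chain that pairs with β5 and β6, at 94.6 and 108 CPM in Phf8-KO against 47.8 CPM in TRAMP.

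**Figure D4:**
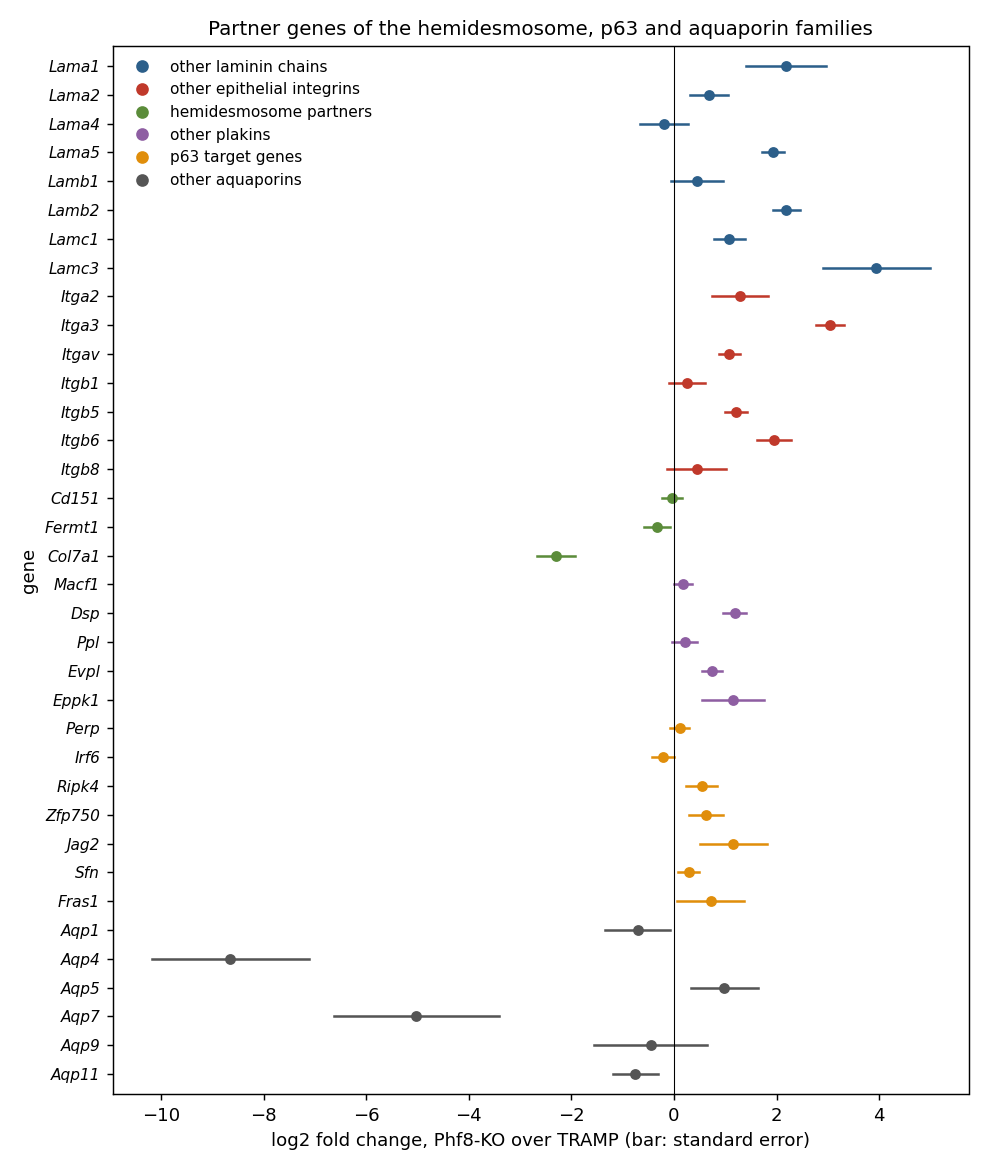
Log2 fold change of Phf8-KO over TRAMP (points) with its standard error (bars) from edgeR's quasi-likelihood fit for 36 partner genes, coloured by list. Itga3 stands at 3.04 and Col7a1 at -2.30, Cd151 at -0.04 lies on the zero line, and the aquaporin genes Aqp4 and Aqp7 lie far to the left on few or no Phf8-KO counts.

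Not every partner at the junction was higher. Cd151, the tetraspanin that sits beside α3β1 and α6β4, was at 156 and 136 CPM in Phf8-KO against 150 CPM in TRAMP. Col7a1, the anchoring fibril collagen that ties laminin-332 to the tissue below, was at 5.10 CPM in Phf8-KO1 and 7.93 in Phf8-KO2, against 32.1 CPM in TRAMP (log2 fold change -2.30 ± 0.37 SE, with an adjusted p of 0.10 in edgeR and 0.00029 in DESeq2). Of the 5 genes listed as hemidesmosome partners (Cd151, Col7a1, Fermt1, Itga3 and Itgb1), 1 was higher and 2 were lower in both pools. Of all genes, 41.0% were higher and 42.8% lower in both.
The 5 other plakins lay above TRAMP in both Phf8-KO pools, Ppl in Phf8-KO1 by less than the counting error (61.5 CPM in each), and 2 had a raw p below 0.05 in the edgeR test, which called 0, while DESeq2 called 1. Dsp, the desmoplakin gene of desmosomes, was at 222 and 254 CPM in Phf8-KO against 105 CPM in TRAMP. Macf1, the closest relative of Dst, was at 138 and 136 CPM in Phf8-KO against 121 CPM in TRAMP.
Of 8 genes known as p63 targets in skin 7 could be tested. Of these 6 lay above and 1 below TRAMP in both pools, against 41.0% and 42.8% of all genes. The edgeR test and DESeq2 called 0, and 0 had a raw p below 0.05. Jag2, a Notch ligand gene, was at 7.43 CPM in Phf8-KO1 and 16.9 in Phf8-KO2, against 5.47 CPM in TRAMP. Zfp750 was at 29.2 and 44.3 CPM in Phf8-KO against 23.8 CPM in TRAMP, and Ripk4, a kinase gene of epidermal differentiation, at 34.9 and 50.3 CPM in Phf8-KO against 29.2 CPM in TRAMP. Sfn, the gene of 14-3-3 sigma, was at 28.8 and 27.1 CPM in Phf8-KO against 22.9 CPM in TRAMP.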

How the data were processed

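Tumor RNA was sequenced as 2 Phf8-KO libraries and 1 TRAMP library, each pooled from 3 mice. The authors aligned quality-filtered reads (HISAT2, GRCm38) and summarised them by gene (HTSeq), and deposited unnormalized counts. Tool versions, annotation release and strand setting are not given in the sources used here. Here edgeR 4.0.16 under R 4.3.3 was the main tool (quasi-likelihood test, default setting, TMM, filterByExpr, Benjamini-Hochberg adjustment over 18216 genes), with DESeq2 1.42.0 and limma 3.58.1 among the alternatives. The study used DESeq2. The standard error is the log2 fold change divided by the square root of F. CPM use TMM library sizes, and counting intervals (95%, exact) and floors of 3 counts cover counting error only. Nothing in the labels states that the Phf8-KO pools hold separate mice, so p-values measure only the spread between these 2 libraries, which lay more than 2-fold apart for 18.3% of genes. Positions are from the RefSeq table of GRCm38, which held all 9 genes, and levels per kilobase use merged exons of the GENCODE annotation, which may differ from the annotation counted. Merged exons join every isoform (41155 bases for Dst), so a gene made in a short form gets too low a level per kilobase. The members, the partner and marker lists and the tests were chosen with earlier results of these data known. Named genes are the members, up to 4 genes of each partner list with the smallest p, Cd151, Krt5, Krt14, Phf8 and the 4 genes nearest to Trp63. Krt15, Krt17, Cdh3, Krt20, Upk3a, Upk1b, Col1a1, Col1a2, Ppl, Krt4, Ivl, Krt10, Ttn, Plin1 and Lep were named after their values were seen. One gene of the lists is not reported here, and the list counts leave it out.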

Additional observations from a re-analysis of the deposited data

How the results depend on the processing

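Of 99 values of the 9 log2 fold changes under the alternatives, 80 were unchanged, 10 gained a call, 3 moved beyond the spread of the pools and 6 turned sign. For values with a test, unchanged means the same direction and side of the threshold. For values without one Phf8-KO pool, which have no test, it means the same direction within the spread of the pools. Only these could be counted as moved. The number of the 9 genes called was 0 in edgeR's quasi-likelihood test and stayed 0 with RLE, upper quartile and library size scaling, a mean CPM of at least 1, limma-voom, the newer quasi-likelihood version and no fold-change threshold. It was 3 with no filter on low counts and 3 with edgeR's likelihood ratio test (Itgb4, Plec and Aqp3 in each), and 4 with DESeq2. The number of partner genes called was 0 in the same settings and 11 with no filter, 11 with DESeq2 and 11 with the likelihood ratio test. The cause was not tested. Trp63 turned to -0.11 with upper quartile scaling and -0.23 with limma-voom, and Dst to 0.064 with library size scaling and 0.0056 with no filter. Upper quartile scaling moved the median of all genes by -0.149. Without one Phf8-KO pool in turn, values with no test, the log2 fold change of Trp63 ran from -1.43 (without Phf8-KO2) to 0.79 (without Phf8-KO1), that of Dst from -0.19 to 0.17, that of Aqp3 from -11.74 to -8.78 and that of Phf8 from -0.37 to -0.26. These values are unfitted log2 ratios of single libraries with a prior count below 1, and for Aqp3 they depend on that prior count. The median of the 9 ran from 0.69 to 0.93, and the number more than 2-fold higher, an alternative chosen after seeing the data, from 3 to 4. Itgb4, Plec and Lamb3 were more than 2-fold higher in either pool. No paired analysis was possible because each library pools mice of a single genotype and the labels name no pairing. For Aqp3, 1 count over both pools limits the precision of its ratio. For Trp63, Lama3, Lamb3 and Col17a1 at most 536 counts per library widen the counting intervals. The Phf8-KO pools of Trp63 also differed 4.59-fold (95% counting interval 3.68 to 5.77), which is beyond counting error.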

Other observations

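Genes of the layers above the basal cell in stratified epithelium also differed in both directions. Krt4, a keratin of stratified mucosa, was at 610 CPM in Phf8-KO1 and 511 in Phf8-KO2, against 169 CPM in TRAMP (log2 fold change 1.73 ± 0.28 SE, with an adjusted p of 0.10 in edgeR). Ivl, the gene of the cornified envelope protein involucrin, was at 1.09 and 1.84 CPM in Phf8-KO against 36.2 CPM in TRAMP (log2 fold change -4.62 ± 0.43 SE, with an adjusted p of 0.10 in edgeR). Krt10 was at 2.81 and 2.78 CPM in Phf8-KO against 2.66 CPM in TRAMP. Of 5 squamous markers tested, the edgeR test called 0, DESeq2 called 1 higher and 1 lower, and 1 higher and 1 lower had a raw p below 0.05. The shares of all genes were 8.42% and 4.10% in DESeq2, and 14.9% and 12.2% at a raw p below 0.05.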
